A study of Mus musculus with 9 samples.

Results

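Liver sinusoidal endothelial cells line the smallest blood vessels of the liver. A set of 10 genes that mark these cells was followed in livers of Tet-OFF mice given doxycycline (Dox) or tetracycline (Tc). The set holds Stab1, Stab2, Lyve1, Clec4g, Oit3, Fcgr2b, Kdr, Pecam1, Ehd3 and Dnase1l3, which were chosen by name as known sinusoidal or endothelial genes, and all 10 were found among the 32285 genes of the table and passed the filter on low values. The study asked how far Dox and Tc themselves perturb transcription in the liver, and RNA of whole livers was sequenced in 9 libraries, 3 in each of 3 groups. Every group was made of Tet-OFF mice, 4 weeks old, that carry a piggyBac (PB) CAG-CreERT2 allele and, at the Rosa26 locus, loxP-stop-loxP (LSL)-tTA and tetO-Venus-ires-mCherry. All mice, the controls included, had received tamoxifen, so that the ubiquitous CAG promoter drove a Cre that turned on the tetracycline transactivator tTA. The Control group received no further drug. The study describes the mice treated with Dox or Tc for this RNA as male. The Dox group drank Dox hyclate at 2 mg/mL for 7 days, and the Tc group drank Tc hydrochloride at the same concentration and for the same time, both with sucrose in the water. The labels do not say whether the controls received sucrose. In these mice either drug shuts off the Venus and mCherry reporters, which the vessel endothelium also expresses, so an action of the drug and the loss of the reporters cannot be told apart.

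The sinusoidal endothelium is perforated by small pores, lacks an organized basement membrane and clears waste molecules from blood. Its scavenger receptors, the stabilins, bind modified lipoproteins, collagen fragments and hyaluronan and carry them into the cell through clathrin-coated pits. Its Fc receptor takes up immune complexes, and its C-type lectins bind glycans. Vascular endothelial growth factor (VEGF) from hepatocytes acts on the receptor encoded by Kdr and maintains the pores, and loss of this differentiated state is called capillarization.

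Library 3 of each group lay close to a weighted sum of libraries 1 and 2 of its group. Of the tested genes that differed over 2-fold between libraries 1 and 2, library 3 lay between them for 501 of 586 in controls, 4139 of 4264 with Dox and 962 of 1022 with Tc. The fitted weights of libraries 1 and 2 were 58.3% and 42.1% in controls, 61.3% and 34.6% with Dox, and 62.1% and 36.7% with Tc. The study describes the libraries of a group as biological replicates, and whether library 3 is independent of the other two was not settled by these values. If it is not, adjusted p-values from all 9 libraries are too small. Values without libraries 3 are given for the Dox difference of each of the 10 genes and for the called genes of the other lists. They are given for only part of the Tc values and of the values between the drugs, and the rest use libraries 3. Dox libraries 1 and 2 also differed more than any other pair, with a median absolute log2 difference of 0.70 over all tested genes against 0.22 in controls and 0.26 with Tc. Over the 10 sinusoidal genes these medians were 0.44, 0.14 and 0.20. Recovered reads on genes ranged from 7426136 to 12183041 per library, so 1 read was worth between 0.84 and 1.27 normalized counts, and every sinusoidal gene was read far above the level of single reads.

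With Dox, 3 of the 10 genes fell over 2-fold against the controls, Stab1, Stab2 and Ehd3, and none rose. Their normalized counts were 3.10-fold, 2.32-fold and 2.02-fold lower. All 10 genes had lower fitted values with Dox than in controls, with a median log2 fold change of -0.79 against 0.00 over all 12100 genes tested, of which 6050 were lower. A gene was called when its fold change was over 2 and its adjusted p under 0.05 by limma on log2(normalized count + 1), with Benjamini-Hochberg adjustment over all tested genes. By that rule 5.0% of all genes were called with Dox and 3.86% were called lower, against 3 of the 10. At any fold, 6 of the 10 had an adjusted p under 0.05, against 8.41% of all genes. In 8 of the 10 genes every Dox library lay below every control library, which held for 17.1% of all genes. With every library scaled to the same total, the median of all genes with Dox moved to 0.17, that of the 10 to -0.62, and Stab1 and Stab2 were called. In RNA of whole tissue, fewer sinusoidal cells and less of these RNAs per cell cannot be told apart.

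Without library 3 of each group, limma called 0 of the 10 genes and 0 of all genes with Dox, and 6 of the 10 had an unadjusted p under 0.05, against 8.6% of all genes. edgeR on the recovered reads of those 6 libraries also called 0 of the 10. DESeq2 on the same reads called 2 of the 10, Stab1 and Stab2, with adjusted p-values of 0.0257 and 0.0171, against 0.851% of all genes. With all 9 libraries DESeq2 called the same 3 genes as limma, against 8.71% of all genes. When single libraries were left out, limma called from 1 to 4 of the 10. The 1 came without Control library 3, when Stab2 alone was called, and the 4 without Control library 1, when Clec4g joined Stab1, Stab2 and Ehd3. Of all 12100 genes, limma called 33 without Control library 3 and 241 without Control library 1. It called 605 with all 9 libraries and 1500 without Dox library 1.

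With Tc, 0 of the 10 genes were called by limma, against 0.165% of all genes, and 4 of the 10 had an unadjusted p under 0.05, against 11.7% of all genes. DESeq2 called 1 of the 10, Lyve1, against 1.41% of all genes. The fitted values of 9 of the 10 lay below the controls, with a median log2 fold change of -0.34 against 0.00 over all tested genes. In 7 of the 10 every Tc library lay below every control library, against 14.9% of all genes. Without libraries 3 limma and edgeR called 0 of the 10 and 0 of all genes with Tc, and DESeq2 called 0 of the 10 and 10 of all genes. The limma count with an unadjusted p under 0.05 then fell from 4 to 1 of the 10, and the share of all genes in that fit was not computed. The Dox and Tc comparisons use the same control libraries, so the values of both stand side by side here without a test of their likeness.

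**Figure D1:**
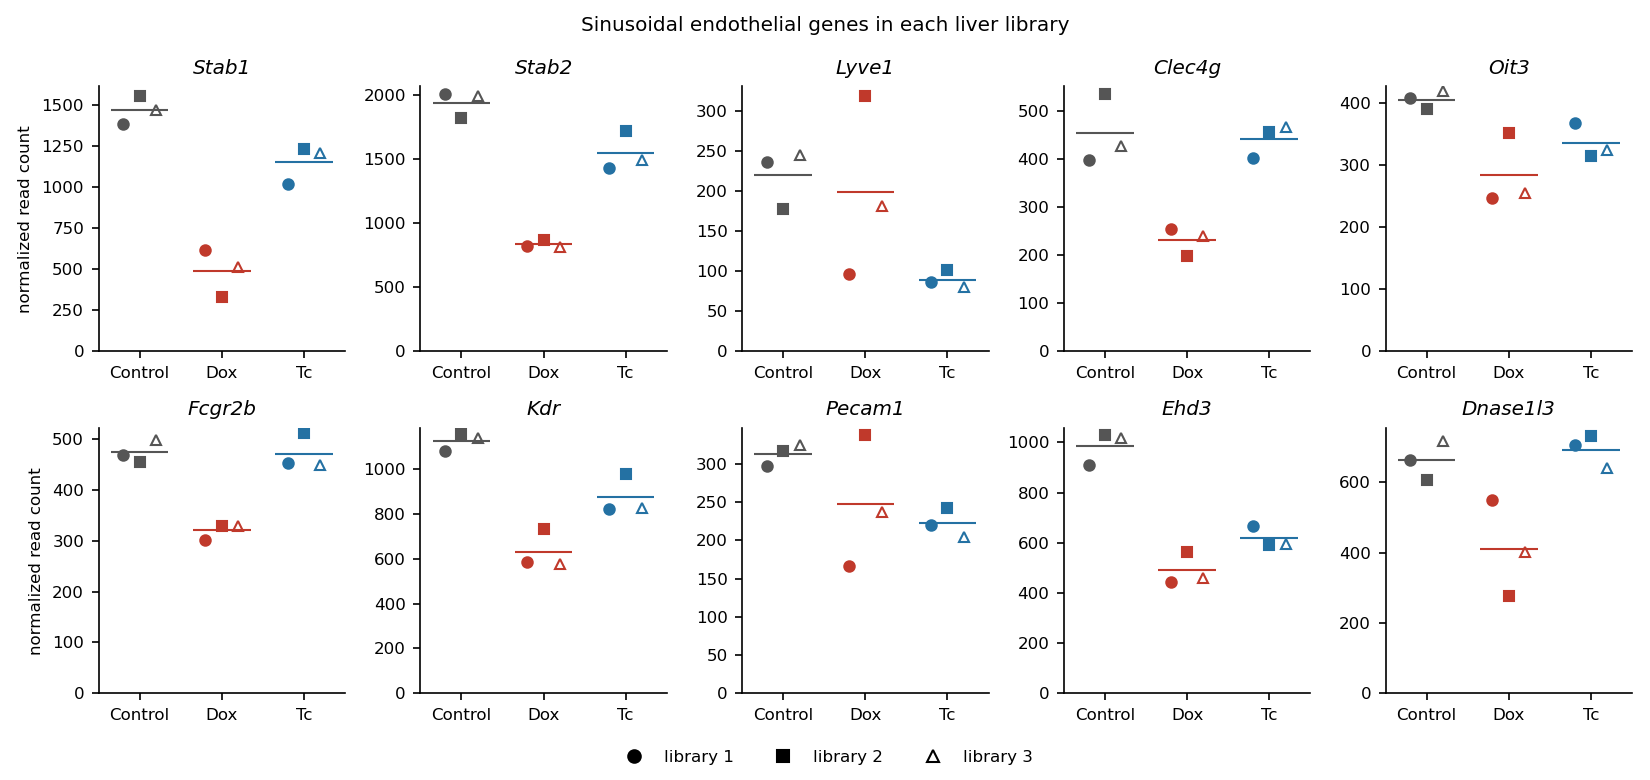
Normalized read counts (linear axes from 0) of the 10 sinusoidal endothelial genes in each library of the Control, Dox and Tc groups. Points are libraries, with library 3 as an open triangle, and bars are group means. The 3 Dox libraries lie below all Control and Tc libraries for Stab1, Stab2, Clec4g, Fcgr2b, Kdr, Ehd3 and Dnase1l3, while Dox libraries 1 and 2 lie far apart for Lyve1 and Pecam1.

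Promoter sequences from RefSeq (GRCm38.p6) were at hand for 6 of the 10 genes, Stab1, Stab2, Clec4g, Fcgr2b, Kdr and Ehd3. Lyve1, Oit3, Pecam1 and Dnase1l3 were not matched. Stab1 and Stab2 are shown because DESeq2 called them lower with Dox also without libraries 3, where limma and edgeR called none of the 10, and Clec4g because its values followed those of Stab1 most closely. The lines give the 250 bases before the RefSeq start, 5′ to 3′ on the gene's own strand, less the 83 bases next to the Stab2 start that GENCODE annotates as exon. Stab1 is from chr14:31168642-31168891, Stab2 from chr10:87008026-87008192 and Clec4g from chr8:3720652-3720901, all on the minus strand. Capitals mark matches to motifs of factors that act in endothelium, searched on both strands. The letters searched were AGATAA for factors of the GATA family, AGGAAG as a first and CCGGAA as a second motif for factors of the ETS family, and ACAAAG for factors of the SOX family.
Stab1: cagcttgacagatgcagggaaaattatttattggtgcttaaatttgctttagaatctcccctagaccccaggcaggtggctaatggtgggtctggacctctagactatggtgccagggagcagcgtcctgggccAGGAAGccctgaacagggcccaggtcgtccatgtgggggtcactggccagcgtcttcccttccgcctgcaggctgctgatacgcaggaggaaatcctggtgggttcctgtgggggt
Stab2: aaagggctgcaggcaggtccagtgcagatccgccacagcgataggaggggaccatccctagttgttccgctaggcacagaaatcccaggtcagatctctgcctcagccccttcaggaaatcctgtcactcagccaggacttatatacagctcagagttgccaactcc
Clec4g: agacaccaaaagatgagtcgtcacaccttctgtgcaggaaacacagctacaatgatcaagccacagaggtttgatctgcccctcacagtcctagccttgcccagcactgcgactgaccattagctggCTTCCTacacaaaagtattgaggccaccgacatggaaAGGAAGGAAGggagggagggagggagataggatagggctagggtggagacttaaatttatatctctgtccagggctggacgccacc

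The ETS letters AGGAAG occurred in the windows of 3 of the 6 genes, against 29.5% of 32851 promoter windows of this length. Stab1 held 1 match, starting 116 bases before its start, and Clec4g held 3, of which those starting 86 and 82 bases before its start overlap. The match of Stab2, starting 40 bases before its start, lies in the exon bases left out above. CCGGAA occurred in the window of Kdr alone, against 12.0% of all windows. The GATA letters AGATAA occurred in none of the 6, against 9.99% of all windows, and the same was true of the SOX letters ACAAAG, against 16.5%. For Ehd3 the whole window lies in an exon of the GENCODE annotation, so these letters describe a transcribed stretch there. In the window of Fcgr2b, 187 of the 250 bases are exon too. The matches are a description of letters only.

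The stabilins are the large scavenger receptors that define the clearing function of this endothelium. Stab1 (chr14:31139013-31168641, minus strand, GRCm38) had 1386.7, 1556.2 and 1469.7 normalized counts in the control libraries, 620.2, 331.3 and 516.4 with Dox, and 1019.5, 1231.1 and 1211.1 with Tc. The groups did not overlap in any pairing, and Dox library 2 was the lowest of all. Its log2 fold change with Dox was -1.63 ± 0.22 (SE, adjusted p = 0.00821 by limma). It was -1.69 without libraries 3 (adjusted p = 0.559) and -1.37 without Dox library 2 (adjusted p = 0.00118). Without Control library 3 the adjusted p was 0.0557, and the call was lost. The Tc value was -0.35, with a 95% interval from -0.85 to 0.14. The span of Nt5dc2, a gene on the other strand with a mean of 38.4 normalized counts, overlaps that of Stab1.

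Stab2 (chr10:86841198-87008025, minus strand) had 2013.3, 1821.6 and 1992.2 normalized counts in controls, 820.3, 867.3 and 818.2 with Dox, and 1429.6, 1721.2 and 1492.4 with Tc. Its Dox libraries were the most alike of the 10 genes, with the highest 1.06 times the lowest, and all lay below the other libraries. On the log2 scale the difference with Dox was -1.22 ± 0.12 (SE, adjusted p = 0.00468 by limma), and it was called whichever single library was left out. Without libraries 3 it was -1.18 (limma adjusted p = 0.559). Tc gave -0.33, with a 95% interval from -0.60 to -0.06 and an adjusted p of 0.358.

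Lyve1 encodes a hyaluronan receptor shared with lymphatic endothelium (chr7:110850607-110863239, minus strand). It had 236.1, 177.8 and 244.1 normalized counts in controls, 96.9, 318.6 and 181.2 with Dox, and 86.9, 101.6 and 80.0 with Tc. It was low in all 3 Tc libraries and in Dox library 1, while Dox library 2 was the highest of all 9. With Dox the log2 fold change was -0.29, with a 95% interval from -1.14 to 0.56. It was -0.71 without Dox library 2 and 0.15 without Dox library 1. Tc gave -1.28 ± 0.37 (SE, adjusted p = 0.263 by limma). This was the largest difference of the 10 genes with Tc, a fold of 2.42. The adjusted p was 0.0497 by DESeq2 with all 9 libraries and 0.0209 by limma without Dox library 2. Without libraries 3 the log2 fold change was -0.22 with Dox and -1.12 with Tc (limma adjusted p = 0.898 and 1). DESeq2 on those libraries gave -1.13 with Tc and did not call it (unadjusted p = 0.0724).

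Clec4g, known as LSECtin, is a C-type lectin of the sinusoidal surface (chr8:3707064-3720651, minus strand). It had 399.1, 536.1 and 428.5 normalized counts in controls, 255.9, 197.9 and 240.2 with Dox, and 403.3, 456.8 and 468.3 with Tc. All Dox libraries were below all others, and the Control and Tc libraries overlapped. limma gave a log2 fold change with Dox of -0.97 ± 0.16 (SE, adjusted p = 0.0138 by limma), just under the fold limit, and -1.04 without libraries 3 (adjusted p = 0.559). It passed that limit without Control library 1 (-1.06) and without Dox library 1 (-1.05). With Tc it was -0.03, with a 95% interval from -0.39 to 0.33.

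Fcgr2b encodes the inhibitory low-affinity receptor for the Fc part of IgG, through which these cells clear small immune complexes (chr1:170958617-170976547, minus strand). It had 468.9, 454.7 and 498.4 normalized counts in controls, 302.2, 329.0 and 329.0 with Dox, and 453.1, 510.8 and 448.9 with Tc. Again the Dox libraries alone were low. Its log2 fold change with Dox was -0.57 ± 0.11 (SE, adjusted p = 0.0223 by limma), a fold of 1.48 and so not called, and -0.55 without libraries 3 (adjusted p = 0.573). The Tc value was -0.01, with a 95% interval from -0.26 to 0.24. Other Fc receptor genes resemble Fcgr2b in sequence, and only uniquely mapped reads were counted.

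Kdr encodes VEGF receptor 2, the main VEGF receptor of blood vessels (chr5:75932827-75978458, minus strand). It had 1077.6, 1151.9 and 1136.6 normalized counts in controls, 585.5, 732.7 and 574.5 with Dox, and 820.3, 976.6 and 824.5 with Tc. The groups did not overlap, with Tc between Dox and the controls. The log2 fold change was -0.84 ± 0.14 with Dox (SE, adjusted p = 0.0139 by limma), under the fold limit, and -0.36 ± 0.14 with Tc (adjusted p = 0.375). Without libraries 3 these values were -0.77 and -0.32 (limma adjusted p = 0.564 and 1).

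Pecam1 encodes CD31, an adhesion molecule of junctions in all endothelium that leukocytes and platelets also carry (chr11:106654217-106750628, minus strand). It had 297.4, 316.7 and 324.2 normalized counts in controls, 166.4, 338.2 and 236.7 with Dox, and 219.7, 241.9 and 204.7 with Tc. Dox library 2 was the highest of all 9 and Dox library 1 the lowest, so the Dox and Control libraries overlapped, while all Tc libraries lay below the controls. The log2 fold change was -0.40 with Dox (95% interval from -0.92 to 0.13) and -0.49 with Tc (95% interval from -1.02 to 0.03). Without Dox library 2 the Dox value was -0.65 (adjusted p = 0.0253 by limma), and without Dox library 1 it was -0.14. Without libraries 3 the Dox and Tc values were -0.37 and -0.41 (limma adjusted p = 0.73 and 1).

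Ehd3 encodes an EH-domain ATPase that shapes membranes in endocytic recycling (chr17:73804134-73832094, plus strand). It had 909.3, 1028.0 and 1018.4 normalized counts in controls, 445.4, 563.6 and 461.0 with Dox, and 667.9, 590.8 and 593.8 with Tc. The groups did not overlap. On the log2 scale the difference with Dox was -1.01 ± 0.13 (SE, adjusted p = 0.00773 by limma), and -0.95 without libraries 3 (adjusted p = 0.559). The call was lost without Control library 2 (-0.98, adjusted p = 0.0448), Control library 3 (-0.99, adjusted p = 0.0567), Dox library 1 (-0.95, adjusted p = 0.00836) or Dox library 3 (-0.97, adjusted p = 0.0492). With Tc the log2 fold change was -0.67 ± 0.13 (SE, adjusted p = 0.106 by limma), and -0.62 without libraries 3 (adjusted p = 1).

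Dnase1l3 encodes a secreted nuclease that degrades DNA of dead cells in blood (chr14:7964533-7994573, minus strand). It had 663.7, 605.1 and 717.1 normalized counts in controls, 548.6, 277.2 and 401.2 with Dox, and 705.0, 731.1 and 639.2 with Tc. The Dox libraries were below all others, with library 2 the lowest. limma gave a log2 fold change with Dox of -0.74 ± 0.22 (SE, adjusted p = 0.0714 by limma), -0.70 without libraries 3 (adjusted p = 0.59) and -0.49 without Dox library 2 (adjusted p = 0.0511). With Tc it was 0.06, with a 95% interval from -0.45 to 0.57, and this was the highest value of the 10 genes with Tc.

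Oit3 encodes a secreted zona pellucida-domain protein of the liver (chr10:59422958-59441778, minus strand). It had 407.5, 389.3 and 418.3 normalized counts in controls, 246.4, 350.8 and 254.3 with Dox, and 367.2, 313.8 and 323.4 with Tc. Both drug groups lay below the controls and overlapped each other. The log2 fold change was -0.53 ± 0.16 with Dox (SE, adjusted p = 0.0678 by limma) and -0.28 ± 0.16 with Tc (adjusted p = 0.55). Without libraries 3 these values were -0.44 and -0.23 (limma adjusted p = 0.619 and 1).

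**Figure D2:**
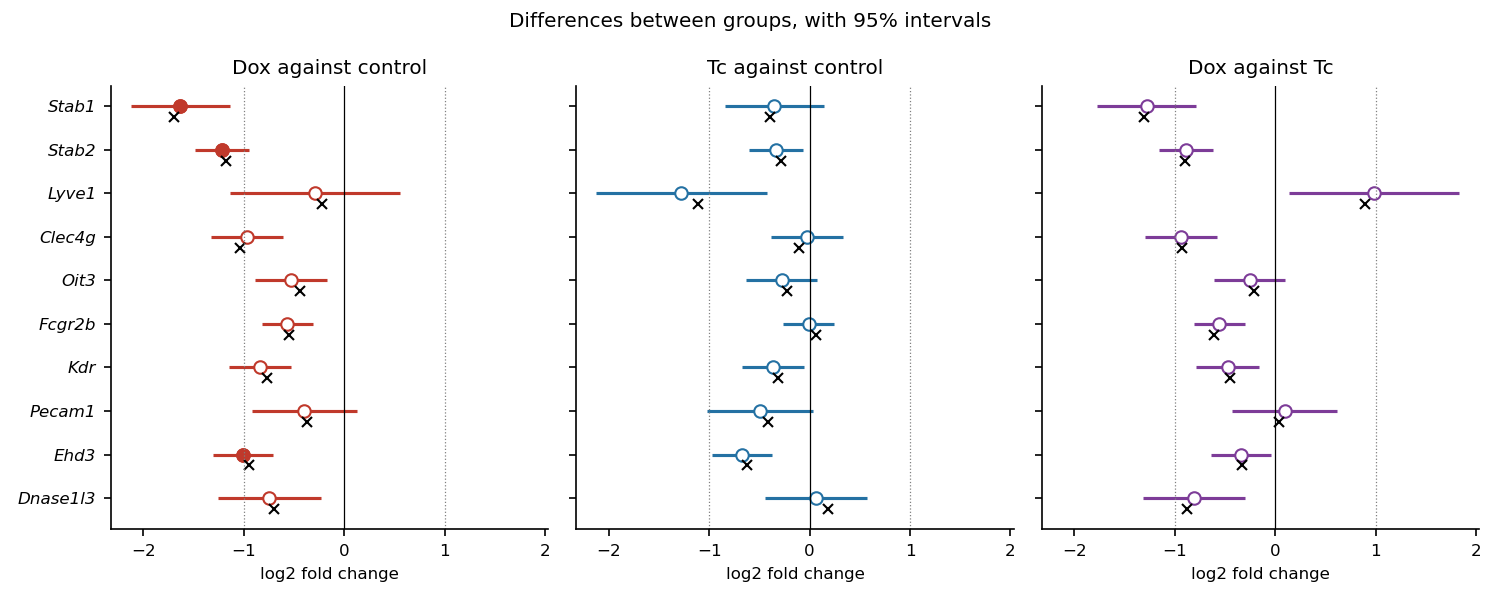
Log2 fold changes of the 10 genes (limma, all 9 libraries, circles) with 95% intervals for Dox against control, Tc against control and Dox against Tc. Filled circles passed both thresholds, crosses are the values without library 3 of each group, and dotted lines mark 2-fold. Stab1, Stab2 and Ehd3 at -1.63, -1.22 and -1.01 are the filled circles, and all crosses lie within the intervals.

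Dox and Tc share the fused-ring tetracycline scaffold and differ in the position of a hydroxyl group, and they were given at the same concentration and for the same time. How much each mouse drank is not given in the sources used here. The 10 genes were compared between the drugs in the same fit, with p-values adjusted over all 12100 genes. limma called 0 of the 10, against 0.215% of all genes, and 8 of the 10 had an unadjusted p under 0.05, against 21.7% of all genes. DESeq2 called 1 of the 10, Stab1, against 4.67% of all genes. In 7 of the 10 every Dox library lay below every Tc library, against 12.4% of all genes. The median log2 difference, Dox minus Tc, was -0.51 against -0.02 over all tested genes. Without libraries 3 limma and edgeR called 0 of the 10 and 0 of all genes. DESeq2 then called 0 of the 10 and 32 of all genes, with an adjusted p of 0.377 for Stab1. The limma count with an unadjusted p under 0.05 fell from 8 to 4 of the 10, and the share of all genes in that fit was not computed.

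Stab1, Clec4g and Stab2 differed most between the drugs with Dox the lower, by log2 values of -1.28 ± 0.22, -0.94 ± 0.16 and -0.88 ± 0.12 (SE, limma adjusted p = 0.0693, 0.0641 and 0.0498, the last with a fold of 1.85). Dnase1l3, Fcgr2b and Kdr followed at -0.81, -0.55 and -0.47, with intervals that lay below 0. For Ehd3 the difference was -0.34 (95% interval from -0.64 to -0.04) and for Oit3 it was -0.25 (95% interval from -0.61 to 0.10). Lyve1 was higher with Dox than with Tc by 0.99 (95% interval from 0.14 to 1.83, limma adjusted p = 0.187). For Pecam1 the difference was 0.10, with an interval from -0.43 to 0.62 that allows a difference in either direction. These p-values and intervals come from the fit without a block. With the library number as a block and only the Dox and Tc libraries, the limma adjusted p of Stab1, Clec4g and Stab2 was 0.379. In that fit the unadjusted limma p of Ehd3 was 0.115, and DESeq2 with that block called Stab1 (adjusted p = 0.0257). Without libraries 3 the differences of Stab1, Clec4g and Stab2 were -1.30, -0.93 and -0.89 (limma adjusted p = 0.755 for each). Without Dox library 2 limma called Stab1 at -1.02 (adjusted p = 0.00776). Without Dox library 1 it called 4 genes, Stab1, Clec4g and Dnase1l3 lower at -1.47, -1.02 and -1.05, and Lyve1 higher at 1.422 (adjusted p = 0.0102, 0.0155, 0.0157 and 0.0176). Of all 12100 genes, the fit without Dox library 2 called 179 and that without Dox library 1 called 1362, against 26 with all 9 libraries.

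Per kilobase of exon, the order of the genes in controls ran from Stab2 at 222 normalized counts per kb to Pecam1 at 50.2. Clec4g followed Stab2 at 185, with overlapping libraries. Ehd3 (150.2), Oit3 (145), Stab1 (143), Dnase1l3 (129) and Kdr (124) came next, each overlapping its neighbour in this order, and then Fcgr2b (81.9) and Lyve1 (75.1), which also overlapped. With Dox the order began with Oit3 (102), Stab2 (95.4) and Clec4g (93.9) and ended with Stab1 (47.6) and Pecam1 (39.7), and every neighbour overlapped. Stab1 thus went from the fifth place in controls to the ninth with Dox. With Tc, Clec4g (179.9) and Stab2 (177) led with overlapping libraries and Lyve1 (30.7) was last.

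Ratios between genes of the same library do not depend on its scaling. Stab1 over Stab2 was between 0.69 and 0.85 in controls and between 0.71 and 0.81 with Tc, and it was 0.76, 0.38 and 0.63 in Dox libraries 1, 2 and 3. Kdr over Stab2 was higher in every Dox library (0.70 to 0.84) than in any control (0.54 to 0.63) or Tc library (0.55 to 0.57). Lyve1 over Stab2 was lower in every Tc library (0.054 to 0.061) than in any control (0.098 to 0.12), and with Dox it ran from 0.12 to 0.37. Stab2 over Pecam1 was lower in every Dox library (2.56 to 4.93) than in any other (5.75 to 7.29). Stab2 over Cdh5, another gene of endothelium in general, overlapped between the groups. It was 1.53 to 2.47 with Dox, 2.03 to 2.57 in controls and 2.25 to 2.86 with Tc.

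**Figure D3:**
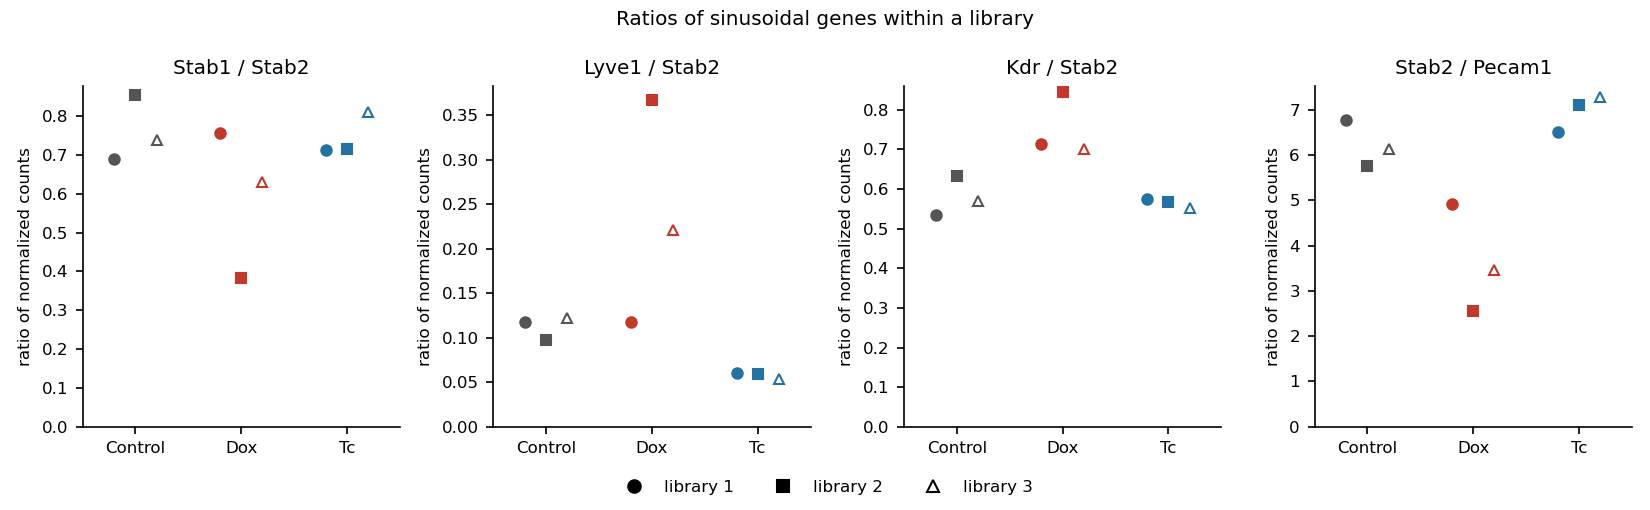
Ratios of normalized counts of gene pairs within each library (linear axes from 0), by group, with library 3 as an open triangle. Dox libraries are set apart for Kdr over Stab2 (0.70 to 0.84) and Stab2 over Pecam1 (2.56 to 4.93), Tc libraries for Lyve1 over Stab2 (0.054 to 0.061), and Dox library 2 has the lowest Stab1 over Stab2 at 0.38.

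Across the 9 libraries most of the genes followed each other. Of the 45 pairs, 40 had a Pearson r above 0 and 16 an r above 0.8, with a median of 0.73, as a description of libraries that share group differences. Stab1 and Clec4g had the highest r at 0.96, and Stab2 with Fcgr2b and with Kdr had 0.96 and 0.95. Kdr had an r of 0.98 with the mean of the other 9 genes and Stab2 0.96, against 0.55 for Dnase1l3, 0.50 for Pecam1 and 0.09 for Lyve1. Lyve1 and Dnase1l3 had the lowest r of any pair at -0.51, and over the 6 libraries without libraries 3 it was -0.68.

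Other genes of the sinusoidal endothelium, 20 on the list and 19 tested, included 2 that fell with Dox. This count is too small to set the list apart from the 3.86% of all genes called lower. With every library scaled to the same total, 0 of the list were called, against 572 of all genes. Of the genes on this and the following lists, 17 were called with Dox from all 9 libraries. Without libraries 3 all 17 kept their sign, limma called 0 of them (adjusted p from 0.559 to 0.573), and DESeq2 called 3, Clec4f, Mpo and Slc4a1. Of these, Mpo and Slc4a1 passed the filter on low values only through libraries outside the Dox group. Flt4, the VEGF receptor 3 of sinusoidal and lymphatic endothelium, had 883.8 to 967.5 normalized counts in controls, 363.3 to 572.9 with Dox and 500.9 to 809.3 with Tc, and a log2 fold change with Dox of -1.04 ± 0.21 (SE, adjusted p = 0.0249 by limma). Plxnc1, a semaphorin receptor, had 473.2 to 580.4 in controls, 204.3 to 260.4 with Dox and 397.4 to 655.6 with Tc, and a log2 fold change with Dox of -1.14 ± 0.20 (adjusted p = 0.015). For both genes all Dox libraries lay below all controls. Without libraries 3 neither was called by DESeq2 (adjusted p = 0.421 and 0.193). The list's median with Dox was -0.62, 16 of 19 being lower, and -0.20 with Tc, where 0 were called. The cathepsin gene Ctsl, the most abundant of the list and not particular to endothelium, had 32727 normalized counts in Dox library 2 and 14183 in Dox library 3, against 4417 to 6949 in the other 7 libraries. Tfec, a transcription factor gene of low level, had a log2 fold change with Dox of -1.30 (adjusted p = 0.117). The abundant Il6st and Ptprb, a cytokine receptor subunit and a phosphatase of endothelium, had -0.31 and -0.33 (adjusted p = 0.169 and 0.266).

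Among 22 genes of endothelium in general, 2 fell with Dox, Cdh5 and Gimap4, a count too small to set the list apart from the 3.86% of all genes called lower. Cdh5 encodes VE-cadherin, the junction protein that defines endothelium, and had 784.4 to 898.8 normalized counts in controls, 332.7 to 565.9 with Dox and 499.0 to 764.4 with Tc, with a log2 fold change with Dox of -1.02 ± 0.22 (SE, adjusted p = 0.032 by limma). Gimap4, a GTPase gene that lymphocytes also express, had 73.7 to 77.9 in controls and 34.7 to 40.3 with Dox (log2 fold change -1.03 ± 0.22, adjusted p = 0.0282). In both genes the Dox libraries lay below the controls, and neither was called by DESeq2 without libraries 3 (adjusted p = 0.509 and 0.488). The median of the 22 genes was -0.42 with Dox and -0.41 with Tc, where 0 were called. Eng, a co-receptor of TGF-beta signals, and S1pr1, a receptor of sphingosine 1-phosphate, had -0.41 and -0.79 with Dox (adjusted p = 0.0633 and 0.278), and S1pr1 was lowest in Dox library 2 at 123.1 normalized counts against 365.1 or more elsewhere.

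Genes of large vessels and of capillarized sinusoids, 12 of 16 tested, included 0 calls in any comparison, with 5 at an unadjusted p under 0.05 with Dox and 0 with Tc, against 29.1% and 11.7% of all genes. DESeq2 called 0 of them with either drug. Their median was -0.63 with Dox and -0.32 with Tc. Col4a1, a basement membrane collagen, had 1368.0 to 1484.5 normalized counts in controls, 420.1, 1442.5 and 776.0 with Dox and 749.0 to 927.1 with Tc. Vcam1, an adhesion molecule of activated endothelium, had 559.1 to 651.0 in controls, 86.3, 995.0 and 373.0 with Dox and 181.1 to 290.5 with Tc. In both genes, as in Lyve1 and Pecam1, Dox library 1 was low and Dox library 2 high. Cd34, a marker of capillarized sinusoids, had 31.8 to 34.3 in controls and 12.7 to 17.9 with Dox (log2 fold change -1.05, adjusted p = 0.0815), and Bgn, a matrix proteoglycan, had -0.37 (adjusted p = 0.114). Other genes of the list had higher values with Dox. Emcn, an endothelial sialomucin, had 16.9 to 17.8 normalized counts in controls and 24.2 to 26.5 with Dox (log2 fold change 0.50, adjusted p = 0.27), so that every Dox library lay above every control. Vwf, the von Willebrand factor gene, had 156.7 to 223.8 in controls and 163.2, 396.9 and 248.1 with Dox (log2 fold change 0.41, adjusted p = 0.385).

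Of the VEGF and angiopoietin genes, 14 of 17 were tested, and Flt4 was the only one called, with Dox. Nrp1, a co-receptor of VEGF, had 692.3 to 855.5 normalized counts in controls, 281.8 to 827.6 with Dox and 1174.7 to 1687.0 with Tc, so that every Tc library lay above every other library. Its log2 fold change with Tc was 0.84 ± 0.35 (SE, adjusted p = 0.412 by limma). Angptl4, which inhibits lipoprotein lipase, had 824, 5550 and 2231 normalized counts in Dox libraries 1, 2 and 3 against 751 to 1125 in the controls, and Angptl6 was lowest in Dox library 2 (20.7). Of 13 tested angiocrine genes, whose products act from endothelium on other liver cells, 0 were called, and 4 had an unadjusted p under 0.05 with Dox, against 29.1% of all genes, while DESeq2 called 2, against 8.71%. Gas6, a ligand of TAM receptors, had 437.2 to 839.6 normalized counts in controls and 200.2 to 280.1 with Dox (log2 fold change -1.35, adjusted p = 0.0606), and Tgfb1 had -1.01 (adjusted p = 0.0993). Bmp2, which acts on hepatocytes to induce hepcidin, had -0.21 with Dox, and Inhbb, an activin subunit, had 13.7, 258.8 and 115.3 normalized counts in Dox libraries 1, 2 and 3 against 14.8 to 16.8 in controls.

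Partners in endocytosis, 14 genes that many cell types use, included 0 calls, and DESeq2 called 0. With Dox, 5 of the 14 had an unadjusted p under 0.05, against 29.1% of all genes. The median of the 14 was -0.23 with Dox and -0.02 with Tc. Cltc, the clathrin heavy chain, and Lamp1, a lysosomal membrane protein, had log2 fold changes with Dox of 0.14 and -0.16. Ehd4, the relative of Ehd3, had 121.7 to 158.4 normalized counts in controls and 62.1 to 98.9 with Dox (log2 fold change -0.83, adjusted p = 0.0559). The scavenger receptor gene Scarb1 had -0.05 with Dox, and Cav1, of caveolae, had 11.4 to 16.8 in controls and 23.0 to 39.0 with Dox (log2 fold change 0.98, adjusted p = 0.0647).

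Markers of other liver cells were measured in the same libraries, and their part in the values of the sinusoidal genes was not tested. Kupffer cells, the macrophages of the sinusoids, sit on this endothelium. Of their 12 markers, 4 fell with Dox, Clec4f, Adgre1, Csf1r and Folr2, against 3.86% of all genes called lower. The median log2 fold change of the 12 was -1.63 with Dox and -0.96 with Tc, where 0 were called. The summed level of the 12 ranged from 10629 to 19531 in controls, 2880 to 9789 with Dox and 5153 to 10147 with Tc. Clec4f, which defines these cells, had 2148.8 to 3405.2 normalized counts in controls, 623.4 to 899.5 with Dox and 1083.0 to 1993.7 with Tc (log2 fold change with Dox -1.85 ± 0.26, limma adjusted p = 0.00958, and 0.0232 by DESeq2 without libraries 3). The log2 fold changes with Dox of Adgre1, Csf1r and Folr2 were -1.77, -1.68 and -1.96 (limma adjusted p = 0.0171, 0.0289 and 0.0123, and 0.177, 0.304 and 0.0907 by DESeq2 without libraries 3). Those of Cd5l and Cd163, which were not called, were -1.47 and -1.96 (adjusted p = 0.0714 and 0.0696). Without Dox library 2, 11 of the 12 were called with Dox, against 1102 of all 12100 genes. Within a library, Clec4f over Stab2 ranged from 1.07 to 1.87 in controls, 0.76 to 1.04 with Dox and 0.76 to 1.16 with Tc.

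Of 14 leukocyte markers 5 passed the filter. Ptprc (CD45) was called lower with Dox, against 3.86% of all genes. The granule enzyme gene Mpo was called lower too, but its Dox values lay below the mean of 10 that the filter asks for. It passed the filter only through libraries of other groups, so its call is not set against that share. Ptprc, which defines leukocytes, had 220.2 to 365.4 normalized counts in controls and 82.1 to 155.3 with Dox, a log2 fold change of -1.34 (limma adjusted p = 0.0372, and 0.408 by DESeq2 without libraries 3). Mpo had 9.5, 111.5 and 66.1 in controls and 0, 1.2 and 0.9 with Dox, within the level that 3 reads would give, so the size of its fitted change rests on the pseudocount and is not given. The neutrophil genes S100a9 and Ngp had -1.74 and -2.83 (adjusted p = 0.37 and 0.214), and Ngp was at 0 in Dox library 1. Of 6 tested erythroid markers, 4 were called lower with Dox, again against 3.86% of all genes. Slc4a1 is among the 4, and it too passed the filter only through libraries of other groups. Hba-a1, Hba-a2 and Hbb-bt had log2 fold changes of -1.80, -1.90 and -2.30 (limma adjusted p = 0.0444, 0.0499 and 0.0318, and 0.219, 0.215 and 0.0516 by DESeq2 without libraries 3). Slc4a1 had 54.0 to 107.0 normalized counts in controls and 5.3, 1.2 and 1.8 with Dox, in part within the level of 3 reads, so no size is given (limma adjusted p = 0.00942). Hba-a1 and Hba-a2, like Hbb-bs and Hbb-bt, are near copies whose reads can be split uncertainly. Alas2, which defines the erythroid list, had 118.6 to 335.3 normalized counts in controls but 46.0 to 1367.8 with Dox.

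Among 12 stellate cell markers 0 were called, and DESeq2 called 0. With Dox, 3 of the 12 had an unadjusted p under 0.05, against 29.1% of all genes. Lrat, the defining marker, had 97.4 to 154.8 normalized counts in controls and 59.8 to 157.9 with Dox. Reln and Colec11 had log2 fold changes with Dox of -0.36 and -0.90 (adjusted p = 0.0637 and 0.00942, the last a fold under 2). Cxcl12, Dcn and Col3a1 had -0.40, 0.14 and -1.41 (adjusted p = 0.571, 0.833 and 0.246), and Col3a1 had 65.6 in Dox library 2 against 504.1 or more elsewhere. Of 12 hepatocyte markers, the fibrinogen genes Fga and Fgb fell with Dox, by -1.82 and -1.76 (limma adjusted p = 0.0491 and 0.0354, and 0.251 and 0.125 by DESeq2 without libraries 3). Of all genes, 3.86% were called lower with Dox. The summed level of the hepatocyte list was 1677260 to 2245050 in controls, 718259 to 1332300 with Dox and 1415680 to 2007900 with Tc, and Alb made up 60.3% of it in controls. Without Alb the sum was 721101 to 836214 in controls, 462711 to 724849 with Dox and 804999 to 914689 with Tc. Alb, Trf and Apob had log2 fold changes with Dox of -1.52, -0.67 and -0.36 (adjusted p = 0.208, 0.355 and 0.651). Cps1, Hnf4a, Ass1 and Cyp2e1 had positive values, 0.69, 0.37, 0.37 and 0.22 (adjusted p = 0.257, 0.395, 0.437 and 0.683), and every Dox library lay above every control for Cps1. Of 3 tested cholangiocyte markers, Sox9 rose with Dox by 1.38 (limma adjusted p = 0.0243, and 0.239 by DESeq2 without libraries 3), from 15.0 to 28.0 normalized counts in controls to 45.3 to 69.0 with Dox. Krt19, the defining marker, had 5.3 to 15.9 in controls and 13.8 to 22.1 with Dox (log2 fold change 0.95, adjusted p = 0.205). Krt7, which missed the filter on low values, had 2.5 to 8.8 in controls and 12.7 to 14.1 with Dox. Spp1 had -0.33 with Dox (adjusted p = 0.73). No defining marker of any list was at 0 in any library.

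**Figure D4:**
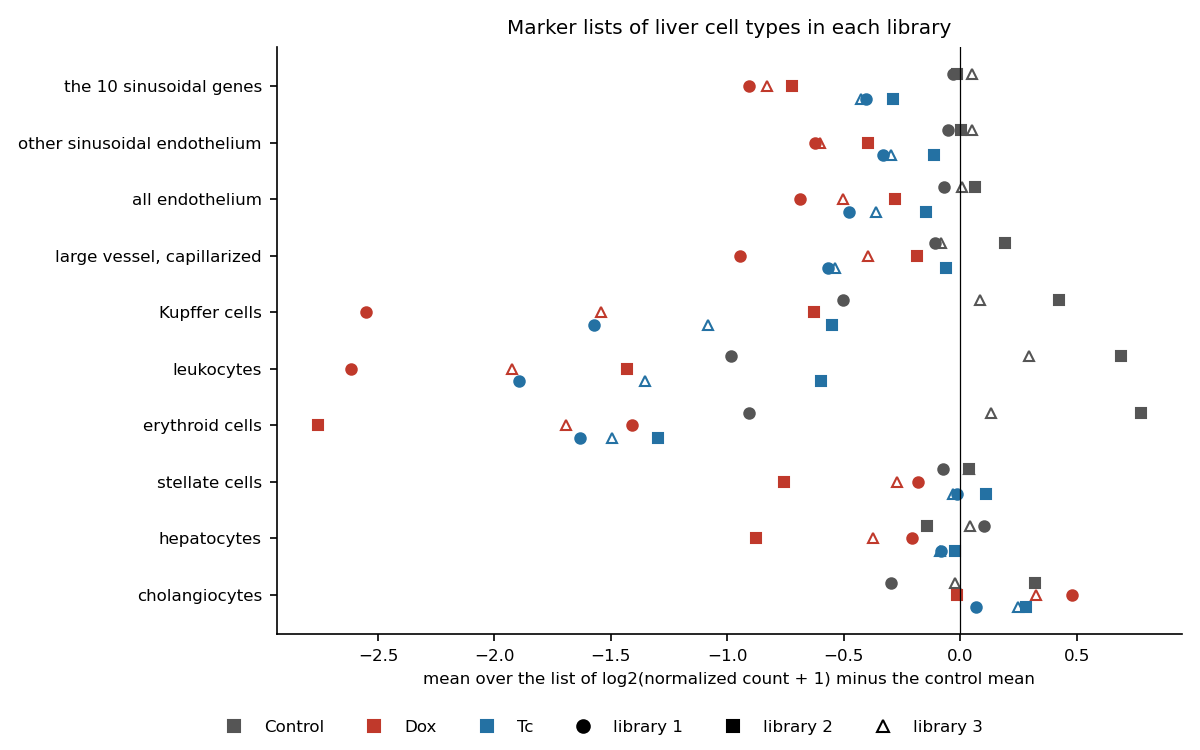
Mean over each marker list of log2(normalized count + 1) minus the control mean (horizontal axis), for each library. Colours are groups and shapes libraries, with library 3 as an open triangle. The 10 sinusoidal genes lie between -0.91 and -0.72 with Dox and between -0.43 and -0.29 with Tc, and Kupffer cell markers spread from -2.55 to -0.63 with Dox.

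The 8 other genes whose values over the 9 libraries were most like the mean z-score of the 10 genes, out of 9369 whose mean normalized count was 50 or more, were Zfand1, Cyp2c40, Itgam, Slc35c2, Dse, Pxdn, Myo9a and Plxnd1, with Pearson r from 0.97 to 0.99. Over the 6 libraries without libraries 3 their r was from 0.95 to 0.99. None of the 8 was on a marker list used here, while Plxnd1 is a semaphorin receptor known from endothelium and Itgam encodes CD11b of myeloid cells. Zfand1 had 111.5 to 117.0 normalized counts in controls, 57.9 to 72.5 with Dox and 78.3 to 89.9 with Tc. Cyp2c40, a cytochrome P450 of hepatocytes with close relatives whose reads may not be told apart, had 1537.6 to 2521.4 in controls, 163.2 to 269.2 with Dox and 747.0 to 1533.2 with Tc. Of the 25 genes with the highest r, Folr2 and Clec4f were Kupffer cell markers, and Igfbp7 and Lamb2 were on the endothelial lists. An r over 9 libraries in 3 groups reflects the group order as much as any other likeness.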

How the data were processed

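Livers were frozen and ground, and total RNA was made into directional libraries and sequenced from 1 end. By the methods of the study and per the labels, the authors trimmed reads with cutadapt, aligned them with STAR to mm10 with the GENCODE vM23 annotation, counted uniquely mapped reads per gene with HTSeq 2.0.5 and scaled them with DESeq2 1.42.0. The strand setting of the counting is not given in the sources used here. The deposited values are a signal, namely read counts divided by 1 size factor per library. Divided by the smallest step of its library, each deposited value gave a whole number (100% within 0.01 of a read), so reads were recovered and rounded for count models. Normalized counts scale whole libraries and do not correct for gene length.

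Log2(normalized count + 1) was fitted with limma 3.58.1 (R 4.3.3) in 1 model of 9 libraries in 3 groups, with no covariate, for the 12100 genes whose mean was 10 or more. Genes with a fold change over 2 and an adjusted p under 0.05 were called. Alternatives were a pseudocount of 0.1 or 8, other filters and scalings, edgeR 4.0.16 and DESeq2 1.42.0 on recovered reads, weights, fits of 2 groups, a replicate block and left-out libraries. The scripts were checked on simulated counts in which 200 genes changed 4-fold between Dox and control, with the same dispersion for every gene. That check does not cover changes near the fold limit of 2, or a library 3 that depends on the others. Intervals are 95% limma intervals and cover the spread between these libraries only, which may be technical: the methods call the libraries of a group biological replicates, but the labels do not tie each to a separate mouse.

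Deviations from the group means correlated between Dox and Tc libraries of the same number (r = 0.29, 0.32 and 0.18) and not between controls and either drug (r from -0.08 to 0.06). The number, which the sample labels give, therefore served as a block in an alternative fit for Dox against Tc. The main fit has no block. The deposited identifiers were matched to symbols and spans with GENCODE vM21 (GRCm38, the build of mm10), for 32158 of 32285 genes. Exon length is that of merged exons.

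The sinusoidal genes, the marker lists and the tests were chosen with earlier results of these data known. Named genes were the 10, the called genes of each list, its 3 most abundant genes and the 2 that differed most with Dox, and the 8 genes most like the 10. Emcn, Vwf, Hnf4a, Ass1, Cyp2e1, Cps1 and Krt7 were added after their values were seen.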

Additional observations from a re-analysis of the deposited data

How the results depend on the processing

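Of the 10 genes, 3 were called with Dox, 0 with Tc and 0 between the drugs. With Dox the count was 6 with no fold limit, 0 without library 3 of each group by limma and by edgeR, and 1 to 4 with single libraries left out. With Tc it was 1 by DESeq2, with only the 2 groups compared, with array weights and with unadjusted p-values, and 0 to 1 with single libraries left out, the 1 being Lyve1 in each case. Between the drugs it was 1 by DESeq2, with no fold limit and with unadjusted p-values, 2 with array weights, and 0 to 4 with single libraries left out. With the replicate block for Dox against Tc it was 0 by limma and 1 by DESeq2, and the replicate block changed no count of called sinusoidal genes in a fit with the same tool. The limma adjusted p of Stab1, Clec4g and Stab2 was 0.379 with that block and only the Dox and Tc libraries. The same-total scaling took Ehd3 below the fold limit (-0.84), and the other pseudocounts, filters and TMM factors changed none of the 3 counts.

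Some log2 fold changes near 0 changed sign. Lyve1 with Dox was 0.013 without libraries 3 by DESeq2 and ranged from -0.71 to 0.15 with single libraries left out. With Tc, Clec4g was 0.062 with array weights and ranged from -0.12 to 0.096, Fcgr2b was 0.059, 0.065 and 0.054 without libraries 3 (limma, DESeq2 and edgeR) and ranged from -0.071 to 0.026, and Dnase1l3 was -0.056 with array weights. Pecam1 between the drugs ranged from -0.16 to 0.35. Over all genes the counts of calls were 605, 20 and 26 and ranged from 0 to 1555 with Dox, 0 to 737 with Tc and 0 to 1362 between the drugs. The cause was not tested. With 2 libraries a group, limma and edgeR called 0 of all genes in each comparison, so those fits give sizes rather than calls.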
